A study of Homo sapiens with 24 samples.

Results

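The 5 NF-kB subunit genes (NFKB1, NFKB2, REL, RELA and RELB), the inhibitor genes NFKBIA and NFKBIZ, the feedback genes TNFAIP3 and BIRC3, and the kinase gene RIPK2 were followed by RNA-seq in 24 libraries of T/C-28a2 cells, an immortalised human chondrocyte line. These 10 genes were chosen by name from a count table of 62703 genes, and each had enough reads to be tested in every comparison. The libraries formed 6 groups of 4 biological replicates. WT cells were kept in isotonic medium (300 mOsm; the libraries labelled WT Ctr) or for 7 days, as a chronic hyperosmotic stress, in medium brought to 400 mOsm with 100 mM sorbitol (WT Sor). WNK2- cells, in which CRISPR/Cas9 removed exon 2 of the osmosensing kinase gene WNK2 and which were grown from single cells, had the same treatments (WNK2- Ctr and WNK2- Sor). WT cells transfected with a WNK2 plasmid for 48 h before the change of medium gave the libraries labelled WNK2 trans Ctr and WNK2 trans Sor. The WT and WNK2- controls were not transfected, so that effects of the plasmid itself and of transfection cannot be told apart from effects of WNK2. A clonal origin likewise cannot be told apart from the loss of exon 2.

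NF-kB is a family of dimeric transcription factors. RELA, RELB and REL carry transactivation domains, whereas NFKB1 and NFKB2 encode the precursors p105 and p100, which are processed to the DNA-binding subunits p50 and p52. In resting cells the dimers are held in the cytoplasm by IkB proteins such as the product of NFKBIA. Cytokine and pattern recognition receptors activate the IkB kinase complex, IkB is degraded and the dimers enter the nucleus, where they induce, among others, their own inhibitors. NFKBIA and TNFAIP3 therefore act as negative feedback genes. In cartilage the pathway is known for its part in the chondrocyte response to IL-1 and TNF.

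The kB consensus, the 10-base site that NF-kB dimers bind, was looked for because several members are textbook targets of the pathway they control. Both strands of the 250 bases before each annotated transcription start were searched. The 50 bases after the start that each window also holds were not searched. From RefSeq's promoter table on GRCh38.p14 windows of 8 of the members were searched, 13 in all, since some genes have more than 1 start. No window of RELB or RIPK2 was searched. Of these 13 windows, 9 held the consensus, and they belonged to 7 of the 8 genes. Of all 35116 windows searched in the same way, 3498 (9.96%) held it. The exception was RELA, with no match in the searched bases of either of its windows, which says only that these letters are absent there. NFKB2 had 5 match positions in 2 of its 3 windows, which are not shown. For each of the other 6 genes 1 window is shown 5′ to 3′ on the strand of the gene, with each match in capitals. NFKBIZ, NFKBIA, NFKB1, BIRC3 and TNFAIP3 are shown because they differed between groups. REL, which did not pass any test, is shown because its matches overlap. NFKB1, NFKBIA, NFKBIZ and BIRC3 are shown from 250 bases before the start to the base ahead of the first exon in GENCODE 29, and TNFAIP3 and REL as a short stretch around their sites, which overlap an annotated first exon.
NFKBIZ, chr3:101827740-101827989, plus strand: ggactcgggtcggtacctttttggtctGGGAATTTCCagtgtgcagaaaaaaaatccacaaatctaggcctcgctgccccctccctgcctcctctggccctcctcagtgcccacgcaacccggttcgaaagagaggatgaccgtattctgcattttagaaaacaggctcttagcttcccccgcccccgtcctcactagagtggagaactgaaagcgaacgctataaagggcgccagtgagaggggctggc
NFKBIA, chr14:35404750-35404999, minus strand: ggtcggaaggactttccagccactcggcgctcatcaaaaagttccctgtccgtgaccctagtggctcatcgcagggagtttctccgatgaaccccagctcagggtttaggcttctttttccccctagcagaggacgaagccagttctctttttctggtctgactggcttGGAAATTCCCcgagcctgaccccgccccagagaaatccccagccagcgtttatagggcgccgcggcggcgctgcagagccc
NFKB1, chr4:102501109-102501328, plus strand: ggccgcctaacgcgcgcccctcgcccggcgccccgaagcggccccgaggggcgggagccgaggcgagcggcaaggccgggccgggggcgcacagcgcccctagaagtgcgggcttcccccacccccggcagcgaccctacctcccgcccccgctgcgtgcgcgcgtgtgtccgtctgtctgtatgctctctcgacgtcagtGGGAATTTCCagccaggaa
BIRC3, chr11:102317234-102317449, plus strand: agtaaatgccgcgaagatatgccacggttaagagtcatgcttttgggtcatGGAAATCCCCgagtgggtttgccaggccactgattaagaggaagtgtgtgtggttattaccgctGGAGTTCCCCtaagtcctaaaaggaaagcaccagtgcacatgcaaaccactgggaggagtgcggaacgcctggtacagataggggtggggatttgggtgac
TNFAIP3, chr6:137867188-137867217, plus strand: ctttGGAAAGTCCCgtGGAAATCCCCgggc
REL, chr2:60881518-60881546, plus strand: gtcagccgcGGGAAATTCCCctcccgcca

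The sites lay at different distances from the RefSeq start. In the NFKBIZ window shown the match was 223 to 214 bases before the start and in NFKBIA 81 to 72 bases before it. Another window of NFKBIZ, chr3:101849264-101849563, held 1 match position, read on both strands, and is not shown. NFKB1 had 1 match 49 to 40 bases before its start. The NFKBIA match and the 2 matches each of BIRC3 and TNFAIP3 were read on the strand opposite to the gene, and in REL 2 matches on opposite strands overlapped. A match is a description of the letters, and binding was not measured.

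Total counts per library ran from 14153002 to 25664619, and the WNK2- libraries were the deepest as a group (medians of 21051909.5 and 20203563.5, against 16176287.5 in WT Ctr). WNK2, the targeted gene, was measured first as a check of the labels. Its level, like the others below, is a normalized count, the count divided by the TMM-scaled size of its library and multiplied by the mean scaled size of the 24 libraries. It had 2520.0 ± 901 (SD, n = 4) normalized counts in the libraries labelled WT Ctr, 303 ± 19.0 in WT Sor, 407 ± 13.9 in WNK2- Ctr and 359 ± 46.1 in WNK2- Sor. It stood at 252 ± 52.8 in the libraries labelled WNK2 trans Ctr and at 3033 ± 707 in WNK2 trans Sor. The count in the former group lay below that of WT Ctr, against the label. WNK2 was also 8.33-fold lower in WT Sor than in WT Ctr, a log2 difference of -3.06 (SE 0.21, adjusted p = 1.52e-10). Under sorbitol WNK2- against WT gave 0.25 (SE 0.20, adjusted p = 0.33), so that the WNK2 counts did not tell these 2 genotypes apart there. Every direction given below rests on the labels as deposited. The libraries also differed in how GC-rich genes stood against GC-poor ones. Genes were split into 5 bins of GC content, and the median of the highest bin minus that of the lowest, each gene taken relative to its mean over the 24 libraries, ran on the log2 scale from -0.57 to 0.53 among the 4 WT Ctr libraries and from -0.95 to 0.34 in WNK2 trans Sor, but from 0.15 to 0.31 in WT Sor. This difference is called the GC tilt here. Of 9 chondrocyte markers, 3 to 6 had at least 10 counts in a library. SOX9 was listed at 0 in every library. So were RNF31 and ITCH, which most cells express, and a 0 in these files is therefore not read as absent expression. COL9A1 had at most 3 counts, and HAPLN1, a link protein of the cartilage matrix, carried most of the summed level. That sum lay between 1687 and 1934 normalized counts in WT Ctr, 1559 and 1668.0 in WT Sor, 1274 and 1582 in WNK2 trans Ctr, 2001 and 2871 in WNK2 trans Sor, 401 and 451 in WNK2- Ctr, and 415 and 508 in WNK2- Sor. In WNK2 trans Sor, which had the highest sums, HAPLN1 was higher (2157 ± 429.5, against 1488 ± 195 in WT Ctr). COL2A1 went the other way, with 24.1 ± 4.15 in WNK2 trans Sor and 82.6 ± 27.0 in WT Ctr, and so did ACAN (29.9 ± 11.5 and 59.7 ± 28.2), COMP (9.24 ± 7.58 and 38.4 ± 11.5) and MATN3 (21.3 ± 16.6 and 63.2 ± 19.7). The sum of 4 endothelial markers ran from 423 in WNK2- Ctr to 1943 in WNK2 trans Sor, and that of 6 leukocyte markers from 56.5 to 417, with CD68 listed at 0 throughout. The part of these markers in the results was not tested.

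**Figure D1:**
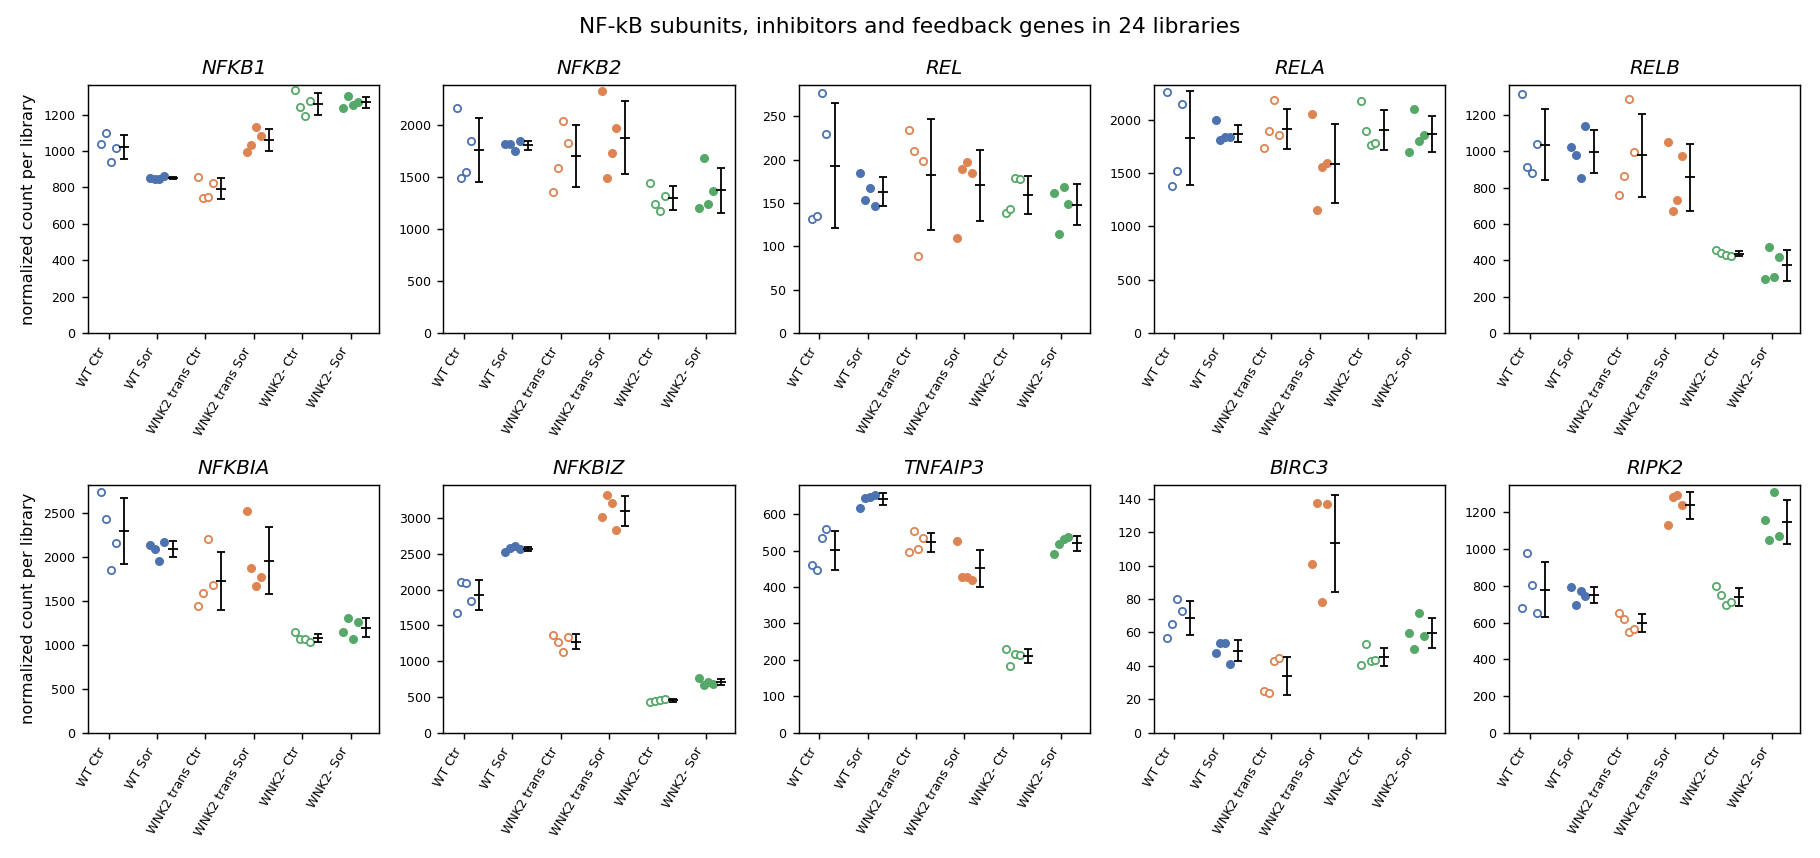
Normalized counts (y axis, from 0, each panel with its own scale) of the 10 members in the 24 libraries, by group on the x axis; open points are isotonic and filled points sorbitol libraries, and the black mark beside each set is the mean ± SD of 4 libraries. NFKBIZ, NFKBIA and RELB lay low in both WNK2- groups, the means of BIRC3 and RIPK2 were highest in WNK2 trans Sor (RIPK2 overlapping with WNK2- Sor and BIRC3 with WT Ctr), and RELA and REL overlapped between all groups.

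Normalized counts were divided by exonic length to compare levels between genes. Over the 24 libraries NFKBIA had the highest mean, 726 normalized counts per kb, and NFKB2 (364), RELA (335), NFKBIZ (283), RIPK2 (281) and RELB (257) followed. The ranges of these 5 genes over the 24 libraries, which span all groups, overlapped with each other, so that these ranges gave no order. Over the 24 libraries the range of NFKBIA also reached into those of NFKB2 and NFKBIZ. Within WT Sor the libraries of NFKBIZ (mean 436), NFKB2 (402), RELA (342) and RIPK2 (241) did not overlap with each other, while RELB (329) overlapped with RELA. NFKB1 (167) and TNFAIP3 (93.8) had lower means over all libraries, but the order depended on the group. In WNK2- Ctr NFKB1 had 201 normalized counts per kb, above RELB (144) and NFKBIZ (76.5), and in WNK2- Sor it had 203, against 123 and 119. REL (12.9) and BIRC3 (8.20) were the lowest, and every library had less of either than any library had of the other 8 genes. Exons of another annotated gene cover 43.3% of the exonic bases of REL on the same strand, so its count may omit reads that could be given to either gene.

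The response of WT cells to chronic hyperosmotic stress was compared first. Among the members NFKBIZ and TNFAIP3 rose, by 1.33-fold and 1.28-fold, NFKB1 fell, to 0.832 of its isotonic level, and 7 did not pass the test. These 3 of 10 calls were close to the 24.1% of all 16600 tested genes that were called in this comparison. Here and below, a gene was called at an adjusted p under 0.05 in the quasi-likelihood test of edgeR after Benjamini-Hochberg adjustment. The median log2 fold change of the members was -0.054, and that of all tested genes 0.035. In bulk libraries such as these, fewer cells that express a gene and less RNA per cell cannot be told apart.

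In WNK2- cells sorbitol raised NFKBIZ (1.56-fold), TNFAIP3 (2.47-fold) and RIPK2 (1.55-fold), and no member fell. The share of all genes called was 14.9%, against 3 of the 10 members. The difference between the WNK2- and the WT response was tested as an interaction. TNFAIP3 and RIPK2 had the larger response in WNK2- cells, and these 2 of 10 calls stand beside 8.65% of all genes. DESeq2 added BIRC3 and NFKB1 to this interaction, and the 8.65% is not the share of all genes for its calls. In cells labelled WNK2 trans, sorbitol raised BIRC3 (3.35-fold), NFKBIZ (2.43-fold), RIPK2 (2.08-fold) and NFKB1 (1.34-fold). These were 4 of 10 members, where 48% of all genes were called. With a correction for GC content, described with RELB below, 8 of the 10 were called, where 54.7% of all genes were. The response in the transfected cells differed from that in WT cells for 5 members, against 35.5% of all genes: it was more positive for BIRC3, RIPK2, NFKBIZ and NFKB1 and more negative for TNFAIP3. Both interactions and the WT response share the WT libraries.

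**Figure D2:**
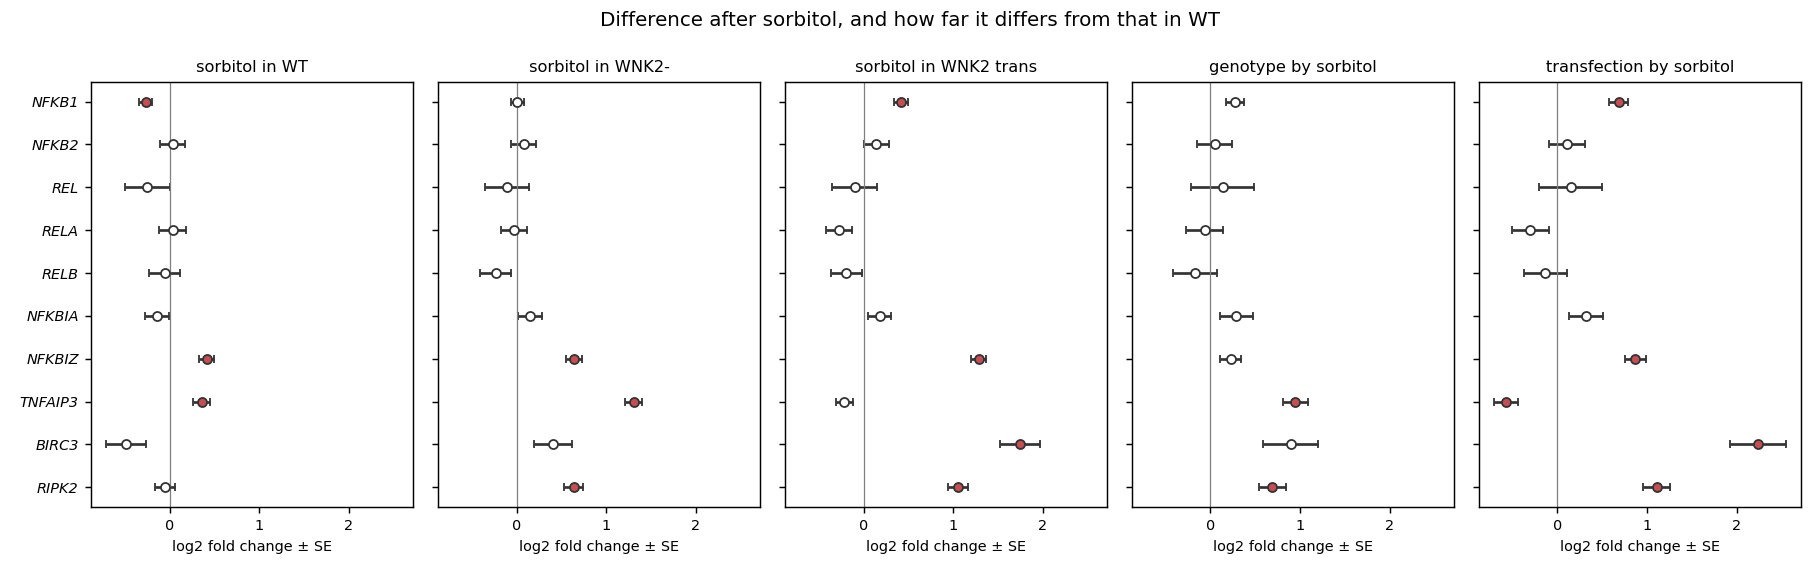
Log2 fold change ± SE (x axis) of each member (y axis) after sorbitol in WT, WNK2- and WNK2 trans libraries, and the difference of the latter 2 from WT (genotype by sorbitol, transfection by sorbitol); filled points passed an adjusted p under 0.05. NFKBIZ was filled in all 3 sorbitol panels, TNFAIP3 in WT and WNK2- but not in WNK2 trans, and no subunit other than NFKB1 was filled.

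Between genotypes more members differed. In isotonic medium the WNK2- libraries had less NFKBIZ, TNFAIP3, RELB, NFKBIA, BIRC3 and NFKB2 than WT and more NFKB1. That made 7 of 10 members, and 42.1% of all genes were called. The median log2 fold change was -0.53 for the members and 0.0020 for all genes. Under sorbitol 7 members differed again, 5 lower (NFKBIZ, RELB, NFKBIA, NFKB2 and TNFAIP3) and 2 higher (NFKB1 and RIPK2) in WNK2- than in WT, where 46.3% of all genes were called. The median was then -0.22 for the members and 0.020 for all genes. Leaving out 1 library at a time kept 6 or 7 members in each medium. The summed chondrocyte markers were lower in the same WNK2- libraries, and their part in these differences was not tested.

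The libraries labelled WNK2 trans Ctr had less BIRC3, NFKBIZ, NFKBIA, RIPK2 and NFKB1 than WT Ctr and no member higher, 5 of 10 beside 12.5% of all genes. With the 8 compared libraries fitted alone 1 member, NFKBIZ, passed. The log2 fold changes of the others were then about as large (BIRC3 -1.03, NFKBIA -0.42, RIPK2 -0.40 and NFKB1 -0.38). In the fit of all groups 3 members passed without WT Ctr replicate 2 or without WNK2 trans Ctr replicate 4. The GC correction raised the count to 7, adding NFKB2 (-0.25) and RELB (-0.43), where 3125 of all 16600 genes were called. Under sorbitol the transfected libraries had more BIRC3, RIPK2, NFKB1 and NFKBIZ and less TNFAIP3 than WT. These 5 of 10 stand beside 31.7% of all genes. BIRC3, RIPK2, NFKB1 and NFKBIZ were lower than WT in isotonic and higher than WT in sorbitol libraries.

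**Figure D3:**
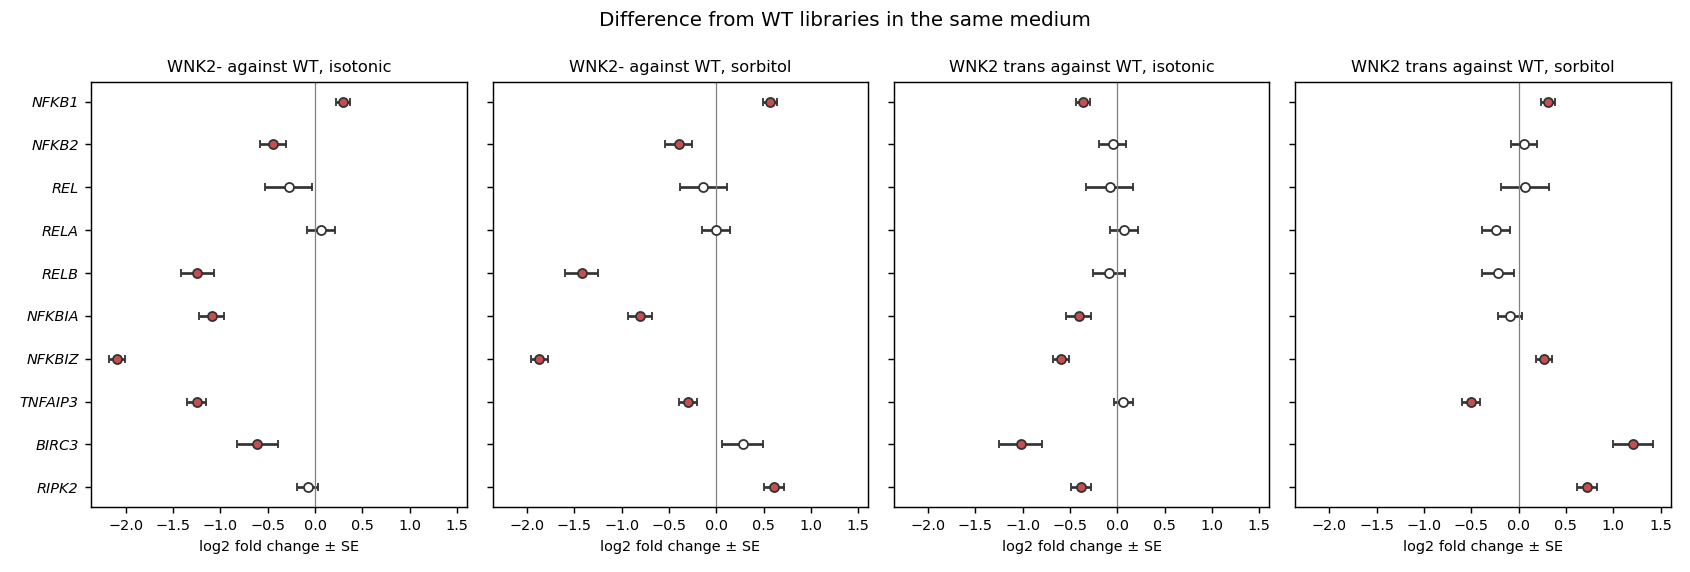
Log2 fold change ± SE (x axis) of each member (y axis) in WNK2- and WNK2 trans libraries relative to the WT libraries in the same medium; filled points passed an adjusted p under 0.05. The WNK2- panels have NFKBIZ as the lowest point (-2.09 and -1.87) and NFKB1 above 0, and in the WNK2 trans panels BIRC3 lies at -1.02 in isotonic and 1.21 in sorbitol medium.

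Of the subunit genes, NFKB1 (ENSG00000109320, GRCh38 chromosome 4, 102501329 to 102617302), which encodes p105 and p50, passed the test in every comparison but sorbitol in WNK2- and the interaction of genotype with sorbitol. It stood at 1039, 1101, 942 and 1016 normalized counts in WT Ctr and at 851, 847, 849 and 861 in WT Sor. In WNK2 trans Ctr it stood at 859, 742, 750.0 and 826 and in WNK2 trans Sor at 994, 1032, 1132 and 1082. The WNK2- libraries had the highest values, 1334, 1240.4, 1190.5 and 1275 in isotonic medium and 1239, 1306, 1256 and 1269 with sorbitol, above every library of the other 4 groups. The fall in WT had a log2 fold change of -0.27 (SE 0.074, adjusted p = 0.0108) and the rise in WNK2 trans one of 0.42 (SE 0.074, adjusted p = 5.65e-05), and the libraries with and without sorbitol did not overlap in either. In WNK2- cells it was 0.0084 (SE 0.073). The difference between the transfected and the WT response was 0.68 (SE 0.11, adjusted p = 1.50e-05). Relative to WT, NFKB1 was higher in WNK2- by 0.30 (SE 0.074, adjusted p = 0.00202) in isotonic and 0.57 (SE 0.074, adjusted p = 5.59e-07) in sorbitol medium. The fall in WT passed the test in the joint fit but not with the 8 WT libraries fitted alone or with no filter on low counts.

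NFKB2 (ENSG00000077150, chromosome 10, 102394110 to 102402529) and RELB (ENSG00000104856, chromosome 19, 45001430 to 45038198) encode the subunits of the non-canonical pathway, in which p100 is processed to p52 and pairs with RelB. RELB stood at 1313, 914, 878 and 1039 normalized counts in WT Ctr and at 456, 439, 428 and 424 in WNK2- Ctr. Under sorbitol it stood at 1022, 977, 850.2 and 1138 in WT and at 296, 471, 306 and 416 in WNK2-. The log2 fold changes were -1.25 (SE 0.17, adjusted p = 2.74e-06) and -1.42 (SE 0.17, adjusted p = 2.61e-07), 2.37-fold and 2.68-fold lower, and no WNK2- library reached a WT library. NFKB2 was lower in the same direction but by less, with 1759 ± 309 and 1293 ± 116 normalized counts in isotonic medium, a log2 fold change of -0.44 (SE 0.14, adjusted p = 0.0129). Under sorbitol it had 1802 ± 41.3 in WT and 1369 ± 219 in WNK2- libraries, a log2 fold change of -0.40 (SE 0.14, adjusted p = 0.0224). The NFKB2 call was lost without WT Ctr replicate 1 in isotonic medium, and without WNK2- Sor replicate 1 or 3 or after correction for GC content under sorbitol, where the value became -0.10. Neither gene passed the test after sorbitol in any of the 3 cell states before that correction.

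RELB and NFKB2 are GC-rich, with 65.0% and 61.5% GC in their exons. Both moved when the dependence of each library on GC content and gene length was taken out. With this correction RELB after sorbitol in WT went from -0.055 to -0.30 on the log2 scale. NFKB2 after sorbitol in WNK2- went from 0.082 to 0.20, and both were called only with this correction. In WNK2 trans libraries the RELB difference after sorbitol was -0.19 without it and 0.57 with it (adjusted p = 5.15e-05, and 5.15e-05 to 0.932 over its alternatives), a change of direction. For NFKB2 it went from 0.14 to 0.67 (adjusted p = 5.75e-10, and 5.75e-10 to 0.956 over its alternatives). With this GC correction 8 of the 10 members were called in the WNK2 trans comparison in place of 4, NFKB2, RELB, NFKBIA and TNFAIP3 being added, and the share of all genes called was 54.7%. In the interaction with transfection it was 8 members in place of 5, where 39.2% of all genes were called. The difference of WNK2 trans from WT under sorbitol likewise went from -0.22 to 0.44 for RELB and from 0.058 to 0.49 for NFKB2. Against WT, WNK2- libraries had RELB at -1.22 in isotonic and -1.02 in sorbitol medium with the correction, the same direction as without it.

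RELA (ENSG00000173039, chromosome 11, 65653596 to 65663094), the main transactivating subunit, passed the test in none of the 9 comparisons. Its group means lay between 1589 and 1916 normalized counts, and within WT Ctr alone its libraries ran from 1379.6 to 2263. That spread followed the GC tilt of the libraries, with a Pearson correlation of 0.92 over the 24 libraries, which share their groups and their scaling with the tilt. RELA has 60.3% GC. For the other members the correlation with the tilt was -0.63 for RIPK2, -0.52 for BIRC3, -0.50 for REL, 0.46 for NFKB2, 0.32 for RELB, -0.31 for NFKB1, -0.20 for NFKBIZ, 0.19 for NFKBIA and 0.13 for TNFAIP3. With the GC correction BIRC3 and RIPK2 still rose after sorbitol in WNK2 trans, by 1.53 and 0.87 on the log2 scale, and both calls held. Without WNK2 trans Sor replicate 1, the RELA difference after sorbitol in WNK2 trans was -0.43 and passed the test, as did that from WT under sorbitol (-0.40), whereas with the GC correction the former was 0.14. With that correction RELA was higher in WNK2- Sor than in WT Sor by 0.26 on the log2 scale and passed the test, where it stood at -0.005 without it.

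**Figure D4:**
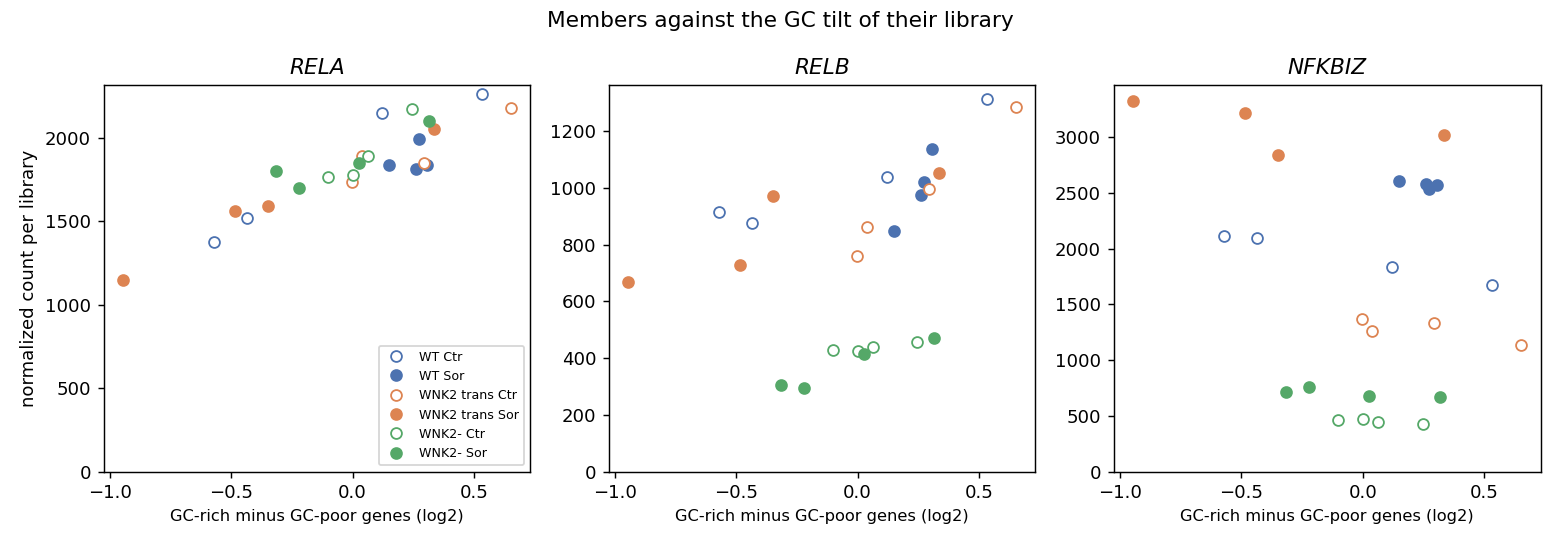
Normalized counts of RELA, RELB and NFKBIZ (y axes, from 0) against the GC tilt of the library (x axis, log2; above 0, GC-rich genes stand higher than on average), 1 point per library, open for isotonic and filled for sorbitol. RELA rises along the axis across all groups (Pearson 0.92 over 24 libraries), RELB has the WNK2- libraries apart and below, and NFKBIZ is ordered by group.

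REL (ENSG00000162924, chromosome 2, 60881521 to 60931610), which encodes c-Rel, also passed in none of the 9 comparisons. Among the WT libraries it ranged from 131 to 277 normalized counts without and from 147 to 185 with sorbitol. The transfected libraries ranged from 88.8 to 234 and from 109.5 to 198, and those of WNK2- from 138 to 179 and from 114 to 168. All 6 ranges overlapped. For sorbitol in WT its log2 fold change was -0.25 with a standard error of 0.25, against one of 0.074 for NFKB1, and a change of the size seen in NFKB1 was not detectable in REL.

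Of the inhibitor genes, NFKBIA (ENSG00000100906, chromosome 14, 35401511 to 35404749) encodes IkB-alpha, which holds NF-kB dimers in the cytoplasm. It stood at 2737, 2432, 1856 and 2161 normalized counts in WT Ctr and 2137, 2086, 1959 and 2165 in WT Sor. In WNK2- it stood at 1144, 1066, 1061 and 1036 in isotonic and 1142, 1311, 1069 and 1254 in sorbitol medium, below every WT library. WNK2- differed from WT by log2 fold changes of -1.09 (SE 0.13, adjusted p = 3.17e-07) and -0.81 (SE 0.13, adjusted p = 1.67e-05). Sorbitol did not move it past the threshold in WT (-0.14), WNK2- (0.15) or WNK2 trans (0.18) libraries. The WNK2 trans Ctr libraries held 1436, 1588, 2203 and 1686, overlapping with WT Ctr, and their log2 fold change of -0.41 (SE 0.13, adjusted p = 0.0393) lost its call in 8 of 16 alternatives, among them the fits without WT Ctr replicate 1 or 2 and without WNK2 trans Ctr replicate 1, 2 or 4.

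NFKBIZ (ENSG00000144802, chromosome 3, 101827991 to 101861022) encodes IkB-zeta, a nuclear IkB protein that acts as a coregulator of a subset of NF-kB targets. Its group means differed more, relative to the lowest, than those of any other member. Its libraries stood at 1672, 2113, 2091 and 1837 normalized counts in WT Ctr and at 2533, 2578, 2604 and 2569 in WT Sor. They stood at 1370.5, 1264, 1131 and 1334 in WNK2 trans Ctr and at 3020.3, 3323, 3215 and 2839 in WNK2 trans Sor. In WNK2- they were lowest, 430.2, 443, 464 and 469 in isotonic medium and 761, 666, 711 and 677 with sorbitol. The 6 groups did not overlap with one another. Sorbitol raised NFKBIZ in WT by 0.41 (SE 0.083, adjusted p = 0.000786), in WNK2- by 0.64 (SE 0.086, adjusted p = 6.79e-06) and in WNK2 trans by 1.28 (SE 0.085, adjusted p = 5.46e-12) on the log2 scale. The response in WNK2 trans was larger than in WT by 0.87 (SE 0.12, adjusted p = 2.82e-06), whereas that in WNK2- differed from WT by 0.23 (SE 0.12, adjusted p = 0.259). NFKBIZ was 4.27-fold lower in WNK2- than in WT in isotonic medium and 3.65-fold lower with sorbitol, log2 fold changes of -2.09 (SE 0.088, adjusted p = 1.94e-15) and -1.87 (SE 0.086, adjusted p = 4.40e-15). Its excess over WT in sorbitol-treated WNK2 trans libraries was small, 0.27 (SE 0.083, adjusted p = 0.0151), and was lost without WNK2 trans Sor replicate 2, with no filter and with the GC correction.

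TNFAIP3 (ENSG00000118503, chromosome 6, 137867188 to 137883312) encodes A20, a ubiquitin-editing enzyme that switches off signalling to the IkB kinase. It stood at 461, 448, 533 and 559 normalized counts in WT Ctr and 616, 644, 648 and 653 in WT Sor. In WNK2- Ctr it was at its lowest, 230.2, 183, 216 and 212, and with sorbitol it stood at 491, 519, 530.3 and 538, 2.47-fold higher. Neither pair of groups overlapped. The log2 fold change after sorbitol was 0.36 (SE 0.10, adjusted p = 0.0084) in WT and 1.30 (SE 0.10, adjusted p = 6.89e-10) in WNK2-, and the responses differed by 0.95 (SE 0.14, adjusted p = 6.01e-05). The log2 fold change of WNK2- against WT was -1.25 (SE 0.10, adjusted p = 2.32e-10) in isotonic and -0.30 (SE 0.10, adjusted p = 0.0111) in sorbitol medium, and every WNK2- library lay below every WT library in the sorbitol medium as well.

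In the transfected cells TNFAIP3 did not rise with sorbitol. It stood at 496, 554, 505 and 534 normalized counts in WNK2 trans Ctr and at 527, 429, 428 and 419.6 in WNK2 trans Sor, where replicate 1 lay apart from the other 3 and alone overlapped with WNK2 trans Ctr. The difference after sorbitol was -0.21 (SE 0.10, adjusted p = 0.069) with all libraries and -0.31 (adjusted p = 0.0103, and 0.0103 to 0.22 over its alternatives) without that replicate. The response differed from that of WT by -0.57 (SE 0.14, adjusted p = 0.00195), and TNFAIP3 was lower in WNK2 trans Sor than in WT Sor, its log2 fold change being -0.51 (SE 0.10, adjusted p = 0.000243). The other feedback gene, BIRC3, had an interaction of the opposite sign in the same libraries.

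BIRC3 (ENSG00000023445, chromosome 11, 102317450 to 102339403) encodes cIAP2, an inhibitor of apoptosis that ubiquitinates proteins of the TNF receptor complex. It had few reads, 20 to 149 in a library. It stood at 24.9, 23.8, 42.7 and 44.8 normalized counts in WNK2 trans Ctr and at 101, 138, 78.2 and 137 in WNK2 trans Sor, with no overlap. In WT it stood at 56.7, 65.1, 80.0 and 73.0 in isotonic and 47.9, 53.8, 53.8 and 40.8 in sorbitol medium. The WNK2- libraries held 45.0 ± 5.38 and 59.7 ± 8.86. The log2 fold change after sorbitol was 1.75 (SE 0.22, adjusted p = 5.01e-07) in WNK2 trans and -0.49 (SE 0.22, adjusted p = 0.109) in WT, and the difference between them was 2.23 (SE 0.31, adjusted p = 3.91e-06). Against WT, the log2 fold change of BIRC3 was -1.02 (SE 0.23, adjusted p = 0.00294) in WNK2 trans Ctr and 1.21 (SE 0.21, adjusted p = 0.000106) in WNK2 trans Sor, and the groups did not overlap in either medium. Its lower level in WNK2- Ctr than in WT Ctr, -0.61 (SE 0.22, adjusted p = 0.0263), was lost in 7 of 17 alternatives, among them the fits without WT Ctr replicate 3 or 4 and without WNK2- Ctr replicate 1, 3 or 4.

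RIPK2 (ENSG00000104312) encodes the kinase that passes signals from the receptors NOD1 and NOD2 to the IkB kinase. It stood at 679, 981, 803 and 654 normalized counts in WT Ctr and 796, 694, 770.1 and 747 in WT Sor, which overlapped. Sorbitol raised it in the other 2 cell states. The WNK2- libraries went from 801, 748, 695 and 712 to 1160.2, 1049, 1309 and 1074, and the WNK2 trans libraries from 653, 619, 549 and 565 to 1131, 1282, 1297 and 1243, with no overlap in either. The log2 fold changes were 0.64 (SE 0.11, adjusted p = 0.000135) and 1.05 (SE 0.11, adjusted p = 1.69e-08), against -0.052 (SE 0.11, adjusted p = 0.77) in WT. The responses differed from WT by 0.69 (SE 0.15, adjusted p = 0.0051) in WNK2- and by 1.11 (SE 0.15, adjusted p = 3.46e-06) in WNK2 trans. Under sorbitol RIPK2 was 1.53-fold higher in WNK2- and 1.65-fold higher in WNK2 trans than in WT. Its lower level in WNK2 trans Ctr than in WT Ctr, -0.39 (SE 0.11, adjusted p = 0.0189), was lost in 5 of 16 alternatives, among them the fits without WT Ctr replicate 2 or 3 and without WNK2 trans Ctr replicate 3 or 4.

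The order of the 6 groups was not the same for all members. NFKBIZ ran from WNK2- Ctr, the lowest, through WNK2- Sor, WNK2 trans Ctr, WT Ctr and WT Sor to WNK2 trans Sor, and each step lay beyond the spread of the libraries. RELB and NFKBIA fell into the 2 WNK2- groups, low, and the other 4, high, and within each of these sets all groups overlapped. NFKB1 was the reverse, with the WNK2- groups at the top and overlapping each other. Over the 24 libraries, which share groups, scaling and depth, RELB and NFKBIA had the highest Pearson correlation of log2 CPM among the members (0.92) and NFKB1 and RELB the lowest (-0.77). Among other genes at a mean log2 CPM of 3 or more, the one whose pattern was most like NFKBIZ was PTGS2 (Pearson 0.97), that most like BIRC3 was CXCL8 (0.91), that most like RELB was ACP2 (0.97) and that most like NFKB1 was GPAT3 (0.96). For the others these were SMG9 for NFKB2 (0.94), MIB1 for REL (0.93), GIPC1 for RELA (0.96), CHMP2A for NFKBIA (0.93), SYT11 for TNFAIP3 (0.87) and PERP for RIPK2 (0.96).

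The other genes of the pathway were counted by their roles. The 12 IkB kinase and upstream kinase genes had 0 calls after sorbitol in WT (24.1% of all genes), 1 rise and 1 fall in WNK2- (14.9%), and 2 rises and 1 fall in WNK2 trans (48%). In isotonic WNK2- against WT libraries 2 of the 12 were higher and 6 lower, where 42.1% of all genes were called. Of the kinases MAP3K14, the NF-kB inducing kinase of the non-canonical pathway, was higher by 0.78 (SE 0.10, adjusted p = 7.35e-07), and it fell with sorbitol in WNK2- by 0.51 on the log2 scale. Of 6 other IkB-type genes, BCL3, a nuclear partner of p50 and p52, was lower in WNK2- than in WT, with log2 fold changes of -1.41 (SE 0.21, adjusted p = 9.36e-06) in isotonic and -1.80 (SE 0.22, adjusted p = 2.23e-07) in sorbitol medium. BCL3 also fell after sorbitol in WNK2 trans, from 2155 ± 341 to 798 ± 325 normalized counts, and the log2 difference was -1.44 (SE 0.21, adjusted p = 5.40e-06). The GC correction brought it to -0.68, still called, and the interaction of BCL3 with transfection from -1.19 to -0.22, no longer called.

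Of 21 adaptors and ubiquitin regulators 19 were tested. After sorbitol 1 was higher and 1 lower in WT, where 24.1% of all genes were called. In WNK2- 3 were higher and 3 lower (14.9%), and in WNK2 trans 4 were higher and 7 lower (48%). IRAK2, a kinase of the IL-1 and Toll-like receptor complex, rose with sorbitol in all 3 cell states, by 0.71 (SE 0.077, adjusted p = 3.84e-07) in WT, 0.90 (SE 0.077, adjusted p = 5.47e-09) in WNK2- and 1.97 (SE 0.079, adjusted p = 4.38e-16) in WNK2 trans. The WNK2 trans response was the larger one against WT, by 1.26 (SE 0.11, adjusted p = 2.30e-09). CYLD, a deubiquitinase that restrains the pathway, rose with sorbitol in WNK2- from 673 ± 59.1 to 1414 ± 164 normalized counts, and TRAF1 rose in WNK2 trans from 201 ± 18.3 to 526 ± 66.0. MYD88 fell with sorbitol, with log2 fold changes of -0.30 in WNK2-, lost in 8 of 18 alternatives, and -0.44 in WNK2 trans. TNIP2 also fell in WNK2 trans, with -0.59, which the GC correction brought to -0.16. Of 16 receptor genes 13 were tested. In WNK2- against WT libraries 7 of them were lower and 2 higher in isotonic medium (42.1% of all genes called), and 7 lower and 1 higher in sorbitol (46.3%). After sorbitol 2 of the 13 were higher and 0 lower in WT (24.1% of all genes called), and 0 higher and 2 lower in WNK2- (14.9%). In WNK2 trans 2 were higher and 7 lower (48%), with log2 fold changes of -1.58 for TNFRSF1A and -1.60 for IL1RAP. IL1R1, the signalling receptor of IL-1, rose with sorbitol in WT by 1.20 (SE 0.21, adjusted p = 0.000163) on the log2 scale. The interaction of IL1R1 with transfection was -2.53 (SE 0.29). In isotonic WNK2- against WT libraries its log2 fold change was -1.38 (SE 0.22, adjusted p = 1.58e-05) and that of CD40, a TNF receptor family member that activates the non-canonical pathway, -2.39 (SE 0.17, adjusted p = 3.28e-11). RNF31, ITCH, TLR4 and TLR6 were listed at 0 in every library and not tested.

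The list of NF-kB target genes held 25 genes, cytokines, chemokines, adhesion molecules and others, of which 20 were tested. With sorbitol 4 rose and 3 fell in WT, 9 rose and 2 fell in WNK2-, and 15 rose and 1 fell in WNK2 trans. Of all genes 11.4% and 12.7% were called higher and lower in WT, 8.25% and 6.64% in WNK2- and 24.3% and 23.7% in WNK2 trans. The median log2 fold change of the list in WNK2 trans was 1.64, where that of all genes was 0.0064. The list, like the members, was chosen with earlier results of these data known. The interaction with transfection was positive for 13 and negative for 1 of the 20, and for 18.1% and 17.4% of all genes. CXCL8, the neutrophil chemokine IL-8, had 260.3 ± 4.24 normalized counts in WNK2 trans Ctr and 3608 ± 636 in WNK2 trans Sor, whereas in WT it fell from 1472 ± 299.5 to 641 ± 42.2. The responses differed by 4.99 (SE 0.19, adjusted p = 5.77e-16). IL1B rose in WNK2 trans from 83.0 ± 21.3 to 1116 ± 175 and in WNK2- from 706 ± 28.2 to 2556 ± 54.7. PTGS2, which encodes the prostaglandin synthase COX-2, rose in WT from 3239 ± 456 to 9975 ± 698 normalized counts.

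The target list did not move as 1 block between genotypes. In isotonic medium 11 of the 20 were lower and 5 higher in WNK2- than in WT, where 21.5% of all genes were lower and 20.7% higher. ICAM1, an adhesion molecule, stood at 291 ± 57.3 normalized counts in WT Ctr and 34.5 ± 5.26 in WNK2- Ctr, and the chemokine CCL2 at 825 ± 118 and 135 ± 18.7. IL1B was higher in WNK2- by 2.43 (SE 0.16, adjusted p = 1.22e-11). VCAM1, another adhesion molecule of the list, fell with sorbitol in WNK2- from 1128 ± 143 to 172 ± 30.2 and in WNK2 trans from 4156 ± 267 to 1037 ± 108. In the libraries labelled WNK2 trans Ctr 11 of the 20 were lower than in WT Ctr and 1 was higher, while in WNK2 trans Sor 11 were higher and 1 lower than in WT Sor. Of all genes 5.57% and 6.98% were higher and lower in the former comparison and 16.1% and 15.5% in the latter. IRF1 of the same list was listed at 0 in every library.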

How the data were processed

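RNA-seq was measured in 24 poly(A) libraries (NEBNext Ultra). The authors deposited raw read counts per gene, 1 file of 62703 genes per library. Their processing notes name FastQC 0.11.9, HISAT2 2.2.1, HTSeq 2.0.2, DESeq2 1.38.3 and GRCh38. The annotation version and the strand setting of the counting are not given in the sources used here, so reads of overlapping genes cannot be told apart. Groups came from the labels.

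Genes kept by filterByExpr of edgeR 4.0.16 in R 4.3.3 (minimum count 10, minimum total 15; 16600 genes) were fitted to 6 group means with TMM scaling, and the quasi-likelihood test of edgeR, adjusted after Benjamini-Hochberg, gave 7 pairwise contrasts and 2 interactions, called at an adjusted p under 0.05. Standard errors were derived from each log2 fold change and its F statistic. The code was tested on simulated data. Alternatives were other scalings, DESeq2 1.42.0, other filters, compared groups only, a replicate block, a GC and length correction (splines, 5 degrees of freedom) and each library left out. Totals of 14153002 to 25664619 counts set the precision. Replicates are called biological, and p-values measure only the spread between these libraries. Genes were matched by identifier to GENCODE 29 for positions, length and GC content, and promoters came from RefSeq. From each pathway list at most the 2 largest rises and the 2 largest falls per comparison are named, called, without overlap between groups (not asked of interactions) and at a mean log2 CPM of 3 or more. Members and lists were chosen with earlier results of these data known.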

Additional observations from a re-analysis of the deposited data

Results flagged for a closer look

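In 3 of 60 sets of 4 libraries 1 member's library lay far from the other 3 by Dixon's criterion, and chance gives about 1 such set in 20. They were REL in WNK2 trans Sor replicate 1 (109.5 normalized counts, group median 187), TNFAIP3 in the same library (527, median 428) and RELA in WT Sor replicate 1 (1994, median 1837). The first 2 belong to 1 library.

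The response to sorbitol in WNK2- differed from that in WT for TNFAIP3, with an interaction of 0.95 on the log2 scale, and for RIPK2, with 0.69. Both values are positive, and their libraries with and without sorbitol did not overlap in WNK2-. The response in the libraries labelled WNK2 trans differed from that in WT for BIRC3 (2.23), RIPK2 (1.11), NFKBIZ (0.87), NFKB1 (0.68) and TNFAIP3 (-0.57). TNFAIP3 was thus the member with a positive interaction in WNK2- and a negative one in WNK2 trans. These interactions, tested by quasi-likelihood in edgeR with Benjamini-Hochberg adjustment, share the WT libraries. In WT Sor, which enters all of them, WNK2 was 8.33-fold lower than in WT Ctr. The interactions with transfection also rest on the libraries labelled WNK2 trans Ctr, whose WNK2 counts go against their label.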

How the results depend on the processing

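Of the members' values under other settings, 1570 kept direction and call, 31 lost the call, 21 gained it and 68 changed direction. None of the last had passed the test, and they belonged to the 5 subunit genes and RIPK2. With the GC correction RELB after sorbitol in WNK2 trans, against WT under sorbitol and in the interaction with transfection, and RELA in WNK2- Sor against WT Sor, passed it in the other direction. The cause was not tested. RELA in WNK2- against WT under sorbitol turned to 0.017 with RLE scaling, 0.021 with upper quartiles, 0.017 with DESeq2, 0.016 with at least 10 counts everywhere and 0.0038 with the replicate block. RELA after sorbitol in WNK2- turned to 0.015 with upper quartiles and 0.0030 with at least 10 counts. With no filter NFKB1 after sorbitol in WNK2- turned to -0.015 and NFKB2 in the interaction with genotype to -0.000775. DESeq2 called 4 members in the interaction with genotype (2 with edgeR). The share of all genes that DESeq2 called there is not given, so these 4 have no background to stand beside.

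The GC and length correction turned NFKB2, RIPK2 and RELA after sorbitol in WT to -0.070, 0.084 and -0.043, RELA in WNK2- to 0.089, and RELB and RELA in WNK2 trans to 0.57 and 0.14. Against WT it turned RIPK2 in WNK2- Ctr to 0.021, RELA in WNK2- Sor to 0.26, RELA in WNK2 trans Ctr to -0.074, and RELB, REL and RELA in WNK2 trans Sor to 0.44, -0.17 and 0.11. In the interaction with genotype RELB and RELA turned to 0.20 and 0.13, and in that with transfection TRADD, RELB, REL, RELA and SHARPIN to 0.082, 0.87, -0.14, 0.18 and 0.0071. It called 8 members after sorbitol in WNK2 trans (54.7% of all genes) and 8 in the interaction with transfection (39.2% of all genes). Of all genes it called 4003 after sorbitol in WNK2- (2473 without it), 3125 in WNK2 trans against WT in isotonic medium (2082 without it) and 2281 in the interaction with genotype (1436 without it). With the compared groups alone 4824 genes were called after sorbitol in WNK2-, and 747 genes and 1 member in WNK2 trans against WT in isotonic medium.

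Leaving out libraries in turn gave 3 to 5 members in WNK2 trans against WT in isotonic medium. It gave 849 to 1908 genes in the interaction with genotype, the lowest without WNK2- Sor replicate 3, and it moved by over 1.5 times also without WNK2- Ctr replicate 2. Without WNK2 trans Ctr replicate 3 NFKBIA gained a call after sorbitol in WNK2 trans and in the interaction with transfection, and without WT Ctr replicate 1, or with the compared groups alone, BIRC3 gained one in the interaction with genotype. After sorbitol in WT the values ran from -0.031 to 0.16 for NFKB2, -0.11 to 0.081 for RIPK2, -0.11 to 0.086 for RELB and -0.074 to 0.16 for RELA. In WNK2- they ran from -0.033 to 0.14 for NFKB2, -0.022 to 0.026 for NFKB1 and -0.094 to 0.029 for RELA, and in WNK2 trans from -0.32 to 0.043 for REL. Against WT they ran in WNK2- Ctr from -0.15 to 0.047 for RIPK2 and -0.057 to 0.18 for RELA, and in WNK2- Sor from -0.068 to 0.038 for RELA. In WNK2 trans Ctr they ran from -0.15 to 0.052 for NFKB2, -0.24 to 0.038 for RELB, -0.23 to 0.16 for REL and -0.042 to 0.18 for RELA, and in WNK2 trans Sor from -0.079 to 0.15 for NFKB2 and -0.020 to 0.21 for REL. In the interaction with genotype they ran from -0.075 to 0.11 for NFKB2, -0.12 to 0.27 for REL and -0.19 to 0.037 for RELA, and in that with transfection from -0.034 to 0.21 for NFKB2, -0.27 to 0.024 for RELB and -0.11 to 0.30 for REL.

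Libraries with the same replicate number deviated together with correlations of -0.27 to 0.22, so no pairing by number was seen. These values do not show that there was none. With the replicate block the call of NFKBIA in WNK2 trans against WT in isotonic medium was lost and no other member's call changed. After the data were seen, fits without the libraries labelled WNK2 trans Ctr, and without these and WT Ctr, were added. The first added BIRC3 to the interaction with genotype, and the second turned NFKB1 after sorbitol in WNK2- to -0.0089. BIRC3, with 20 to 149 counts in a library, had the fewest counts of the members.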
